A study of Drosophila melanogaster
Mus musculus with 6 samples.

Results

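The trimethylation of histone H3 at lysine 27 (H3K27me3) was compared between cells expressing a lysine-to-methionine mutant of histone H3.1 and cells expressing wild-type H3.1, as stretches of the genome rich in the mark. The comparison used every 10 kb interval of the deposited table with H3K27me3 signal in either line, 248709 of 253926 intervals, called bins below. Both lines were C3H10T1/2 cells, mesenchymal progenitors derived from embryos of the C3H mouse strain, at passages 10 to 15. One line stably expressed FLAG-HA-tagged wild-type H3.1 (WT) and the other FLAG-HA-tagged H3.1 carrying the K36M substitution (K36M). The labels do not say whether either line was a clone or a pool. Chromatin was cut to mononucleosomes with micrococcal nuclease, and Drosophila S2 chromatin was added as an outside reference before immunoprecipitation (ChIP-Rx). Of the 6 samples in the series, 2 are compared here, 1 H3K27me3 library per line, and the H3K36me2 libraries of the same lines stand beside them. With 1 library per line there is no test, and no p-value is given.

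H3K27me3 is deposited by Polycomb repressive complex 2 (PRC2) and is a mark of silenced chromatin. PRC2 can bind the mark it makes, and the mark can form wide domains, among them much of the inactive X chromosome and the surroundings of silent developmental genes. H3K36me2, deposited mainly by the NSD enzymes over broad stretches of active and intergenic chromatin, hinders PRC2 when it lies on the same histone tail. The K36M histone inhibits enzymes that methylate lysine 36. The length, number and position of H3K27me3 domains in the 2 lines are described below.

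The table gives scaled reads, which are the reads of an interval times a factor that is fixed for each library. The H3K27me3 bins held 31330422 reads in WT and 29115433 in K36M, so the depths were close, while the factors differed 2.71-fold. Bin values ran from 3.16 at the 25th percentile to 16.2 at the 75th in WT, a 5.14-fold range, and from 16.5 to 47.5 in K36M, a 2.88-fold range. A domain is a run of adjacent bins that each reach the 75th percentile of their own library, 16.2 scaled reads (149 reads) in WT and 47.5 (161 reads) in K36M. Domains set by the own percentile are the same with the deposited factors and with library totals, since a factor moves the values and the threshold together. The 95% counting interval of a bin reached across the threshold in 6.71% of bins in WT and in 16.2% in K36M.

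The highest-ranking H3K27me3 bins formed more and shorter domains in K36M than in WT. In WT, 62187 bins (25%) lay in 13336 domains, and in K36M 62805 bins (25.3%) lay in 19909. The mean domain was 46.6 kb long in WT and 31.5 kb in K36M, while the median was 20 kb in both. Since about 25% of bins lie in domains in each library, the shorter mean follows from the larger number and is not a separate result. The longest domain spanned 1150 kb in WT and 800 kb in K36M. Domains of 100 kb or more numbered 1733 in WT and 1185 in K36M, and held 50.8% and 29.2% of the domain bins. Those of 500 kb or more numbered 38 and 6. At the other end, domains of 1 bin made up 37.6% of all domains in WT and 44.8% in K36M. Ordered by length, the domain at which the running sum reached the midpoint of all domain sequence (the N50) was 100 kb long in WT and 50 kb in K36M.

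The lower number of domains of 100 kb or more went with narrow interruptions, while other measures of length stayed lower in K36M. When gaps of 1 bin were bridged, domains of 100 kb or more numbered 2062 in WT and 2062 in K36M. Those of 500 kb or more were still 99 and 57, the N50 was 160 and 120 kb, and the mean 73.2 and 54.8 kb. With the mean of 3 adjacent bins they numbered 2048 and 1926. The larger number of domains in K36M stayed, at 1.41 times WT with gaps bridged and 1.39 times with the mean of 3 bins. The part of the larger share of K36M bins close to the threshold in these interruptions was not tested. Wide intervals, at which runs end, touched 6.41% of WT domains and 5.89% of K36M domains.

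**Figure D1:**
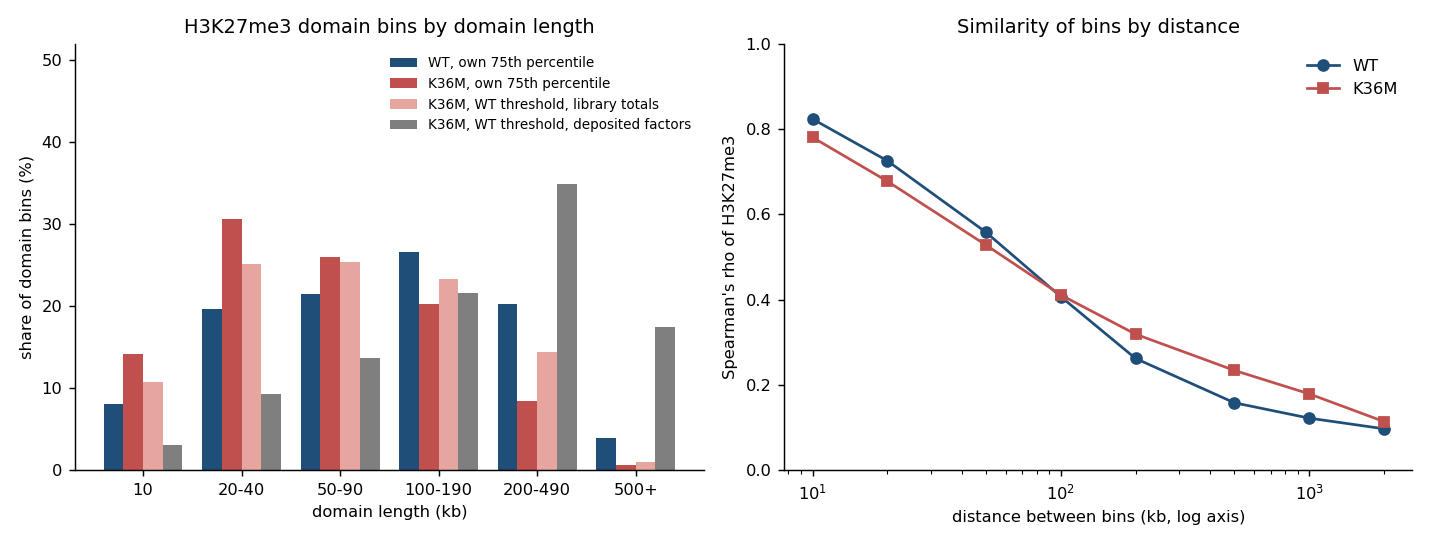
Left: share of H3K27me3 domain bins (%) by length of the domain (kb) in WT and K36M at each library's own 75th percentile, and in K36M at the WT threshold with library totals or deposited factors. Right: Spearman's rho between H3K27me3 values of bins at a given distance (kb, log axis) in each line; the WT curve starts higher, at 0.82 against 0.78, and lies lower at 500 kb, at 0.16 against 0.23.

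The 2 libraries also differed in how far H3K27me3 was alike along the chromosome, a description that needs no threshold. Spearman's rho between bins 10 kb apart was 0.82 in WT and 0.78 in K36M. Between bins 100 kb apart the values met, at 0.41 and 0.41. Beyond this the order turned, with 0.26 and 0.32 at 200 kb and 0.16 and 0.23 at 500 kb. Neighbouring bins were thus less alike in K36M, and bins 200 to 1000 kb apart more alike. On the 19 autosomes alone, rho at 500 kb was 0.11 in WT and 0.20 in K36M. The bins of each value share 1 library.

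Measured against the WT threshold instead of its own, K36M H3K27me3 covered most of the genome, and this result rested on the library factors. The signal is an average over many cells, so a bin marked weakly in all cells and one marked strongly in some cannot be told apart. With the deposited factors, 187177 K36M bins (75.3%) were at or above 16.2 scaled reads, the level that marked the upper 25% of WT. These bins formed 21443 runs, of which 5606 were 100 kb or longer and 478 were 500 kb or longer, the longest 2010 kb. Their N50 was 210 kb, against 100 kb in WT. With both libraries at the same total, 82094 K36M bins (33%) passed, in 21687 runs with an N50 of 70 kb, and 13 runs reached 500 kb. The threshold corresponds to 149 reads in WT, and in K36M to 55.0 reads with the deposited factors and 138 with library totals. The factor also raises the reads of unenriched chromatin, whose amount was not measured here.

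Most bins of WT domains stayed among the upper K36M bins, more so the longer the domain. Of the WT domain bins 60.6% lay in K36M domains, and of the K36M domain bins 60.04% lay in WT domains, 37709 bins in all, where 25.3% is the share of all bins in K36M domains. A WT domain was counted as kept if at least 50% of its bins lay in K36M domains, and as lost if under 20% did. By this rule, with each library at its own threshold, 7483 of 13336 WT domains (56.1%) were kept and 4900 (36.7%) lost. With K36M held to the WT threshold and deposited factors, 98.4% were kept and 1.365% lost, where 75.3% of all bins passed. With library totals these were 68.9% and 26.0%, where 33% of all bins passed. The number lost therefore depends on the threshold and scaling. At the own threshold, 47.1% of the 5008 WT domains of 1 bin were kept. The share was 69.9% of the 1242 domains of 100 to 190 kb, 80.4% of the 453 of 200 to 490 kb, and 36 of the 38 of 500 kb or more. The share of bins in K36M domains went from 47.1% to 85.5% over the same classes.

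Long WT domains were also the ones met by several K36M domains, which length alone favours. A WT domain of 1 bin can meet at most 1, and a longer one has more bins at which to be interrupted. No adjustment for length was made. Of the WT domains of 200 to 490 kb, 85.9% were met by at least 2 K36M domains, with a median of 3. All 38 of 500 kb or more were, with a median of 6, and none of these 38 lay wholly within K36M domains. Within WT domains, the level of H3K27me3 was higher in longer domains up to 490 kb: the median bin held 19.7 scaled reads in domains of 1 bin and 43.3 in those of 200 to 490 kb, then 38.7 in the longest class. The same bins held 45.7, 59.3 and 67.1 in K36M. Their ratio of medians was 2.32, 1.37 and 1.73 with the deposited factors, and 0.922, 0.545 and 0.690 with library totals, so the direction inside WT domains depends on the scaling.

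**Figure D2:**
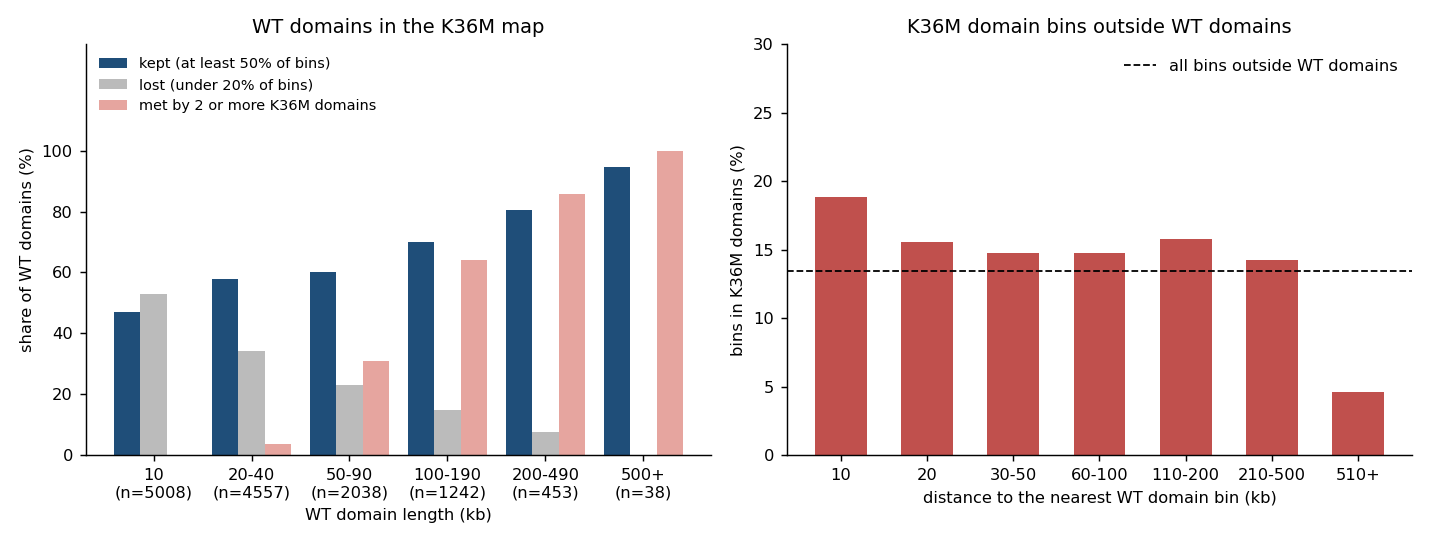
Left: share of WT H3K27me3 domains (%) kept, lost, or met by at least 2 K36M domains, by WT domain length (kb), with the number of domains under each class; kept domains go from 47.1% to 94.7%. Right: share of bins outside WT domains (%) that lay in K36M domains, by distance to the nearest WT domain bin (kb), with their overall share, 13.5%, as a dashed line; the bars up to 500 kb lie above the line and the bar beyond 500 kb, at 4.61%, below it.

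Joining of WT domains was uncommon among all K36M domains when each library was held to its own threshold, and length limits it. A K36M domain of 1 bin cannot join WT domains, and 8918 K36M domains were of 1 bin. Joining was seen in 11.7% of K36M domains of 50 to 90 kb and in 23.2% of those of 100 to 190 kb. Of 19909 K36M domains, 673 (3.38%) overlapped at least 2 WT domains, 545 of them exactly 2, and the largest number joined was 7. Another 10762 met 1 WT domain and 8474 (42.6%) met none. Of 11065 gaps between successive WT domains, 1041 (9.41%) were filled along their whole length by K36M domain bins. The share was 17.5% for gaps of 10 kb, 4.84% for gaps of 30 to 50 kb and 0.115% for gaps of 110 to 500 kb. Bin by bin, 17.5% of the sequence in 10 kb gaps and 19.1% in gaps of 510 kb or more was in K36M domains, and the share ran from 13.4% to 19.1% over all gap lengths. At the WT threshold with deposited factors, 2918 K36M runs joined at least 2 WT domains, the largest 19, and 60.1% of gaps were filled. There 67.4% of all bins outside WT domains passed, and the filled share was 84.15% of 10 kb gaps and 14.1% of gaps of 110 to 500 kb. With library totals 1142 runs joined at least 2 and 16.0% of gaps were filled, where 19.8% of bins outside WT domains passed.

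Domain ends could be compared at the own threshold where 1 WT domain met 1 K36M domain and neither met another, in 5326 of 13336 WT domains. These were mostly short, with a median of 20 kb, and 4684 WT domains met no K36M domain at all. The ends of a pair lay within 10 kb of each other in 84.3% of cases, and in 73.6% where the WT domain was 100 kb or longer. Of all 10652 ends, 58.8% fell at the same bin in both lines, 17.4% lay further out in K36M and 23.8% further in. Where the WT domain was 100 kb or longer, 8.59% of 652 ends lay further out and 38.7% further in, and 40 of 326 domains were longer in K36M while 177 were shorter. The choice by WT length favours ends further in, and pairs leave out K36M domains that reached another WT domain. No choice by K36M length was made. Under library totals with the WT threshold, 13.9% of ends of such domains lay further out and 24.7% further in. Over all pairs these were 22.3% and 17.5%. At the WT threshold with deposited factors 50.4% lay further out and 0.960% further in. The direction in which domain ends moved therefore depends on the threshold applied to K36M.

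**Figure D3:**
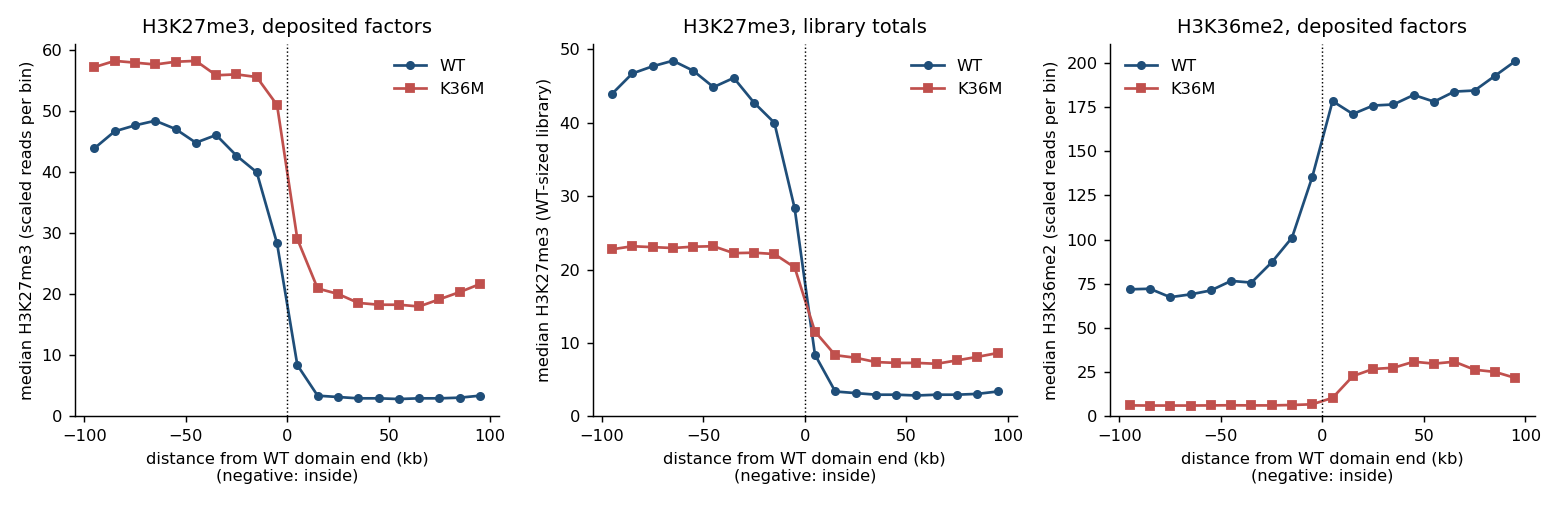
Median H3K27me3 with deposited factors (left) and with library totals (middle), and median H3K36me2 (right), by distance from the end of WT domains (kb, negative inside) at 672 ends, in scaled reads per 10 kb bin. The K36M step at the end of WT domains is 1.76-fold from the last bin inside to the first outside, against 3.38-fold in WT, where the step is set by how ends were chosen.

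The steps at the ends of long WT domains were still present in K36M, over a raised floor. Ends of WT domains of 100 kb or more were profiled where the next 100 kb held no other WT domain bin, 672 ends in all. The WT profile is set by this choice and the K36M profile is not. In WT the median bin held 43.4 scaled reads within 100 kb inside the end and 3.27 within 100 kb outside. In K36M these were 56.3 and 20.7, a 2.73-fold contrast, and the inner mean was above the outer mean at 94.8% of ends. The K36M median was 51.03 in the last bin inside and 29.1 in the first bin outside, reached 20.95 in the next bin out, and was 21.7 in the bin farthest out. Scaled to library totals, K36M was lower inside the end and higher outside it than WT. Of the first bins outside, 17.0% lay in K36M domains, against 13.5% of the second and 16.7% of the tenth.

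H3K36me2, which was not used to choose the ends, stepped in the other direction. Its WT median was 80.8 scaled reads inside these ends and 182 outside, and in K36M 6.24 and 24.2. The K36M genome median of H3K36me2 was 6.16, so the flanks lay above it and the domains near it. Around the 215 ends of K36M domains chosen in the same way, K36M H3K36me2 went from a median of 7.02 inside to 46.6 outside, while WT H3K36me2 was 111 inside and 160 outside. At 8.84% of these ends the inner mean of K36M H3K36me2 was above the outer mean.

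New H3K27me3 domain bins in K36M lay at all distances from WT domains, somewhat more often near them. Outside WT domains, 25096 bins (13.5%) were in K36M domains. This share was 18.9% in bins directly beside a WT domain, between 14.2% and 15.8% in the distance classes from 20 to 500 kb, and 4.61% beyond 500 kb. Bins directly beside a WT domain already held more in WT, a median of 10.8 scaled reads against 4.03 at 110 to 200 kb. Their ratio of K36M to WT medians was the lowest of the distance classes, 2.84 against 5.998 at 110 to 200 kb. With library totals these ratios were 1.13 and 2.385. The 8474 K36M domains with no WT domain bin lay a median of 110 kb from the nearest one (interquartile range 50 to 250 kb), measured from their closest bin. Most of these were short: 4786 were 1 bin, 2858 were 20 to 40 kb, and 176 were 100 kb or more. Of all K36M domain bins, 30.2% had a counting interval that reached across the threshold. Bin by bin, 24.0% of the new domain bins lay within 20 kb of a WT domain and 45.1% over 100 kb away, against 18.4% and 53.3% of all bins outside WT domains.

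Most of them lay where WT H3K36me2 was high. Of the 8474 new domains, 5107 (60.3%) had a mean WT H3K36me2 above the upper quartile of bins, 219 scaled reads. In the highest decile of WT H3K36me2 (median 413 scaled reads), 46.7% of the bins outside WT domains were in K36M domains. The share was 18.95% in the ninth decile, 1.75% in the sixth, and 14.7% in the third, a second and lower rise among H3K36me2-poor bins. Over all bins, the highest decile had 4.31% of its bins in WT domains and 48.1% in K36M domains, while the fifth had 50.4% and 31.2%. Bins in K36M domains alone held a median of 314 scaled reads of H3K36me2 in WT (interquartile range 42.0 to 425), against 89.0 in bins of both, 92.2 in bins of WT domains alone and 86.5 in bins of neither. In K36M their H3K36me2 median was 7.41, which is 0.0236 times WT with deposited factors and 0.223 times with library totals. Over all bins these ratios were 0.0642 and 0.606, so the size of the H3K36me2 fall depends on the scaling. Of the 176 long new domains, 121 (68.8%) had a mean WT H3K36me2 above the upper quartile of bins and 28 (15.9%) below the lower quartile.

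**Figure D4:**
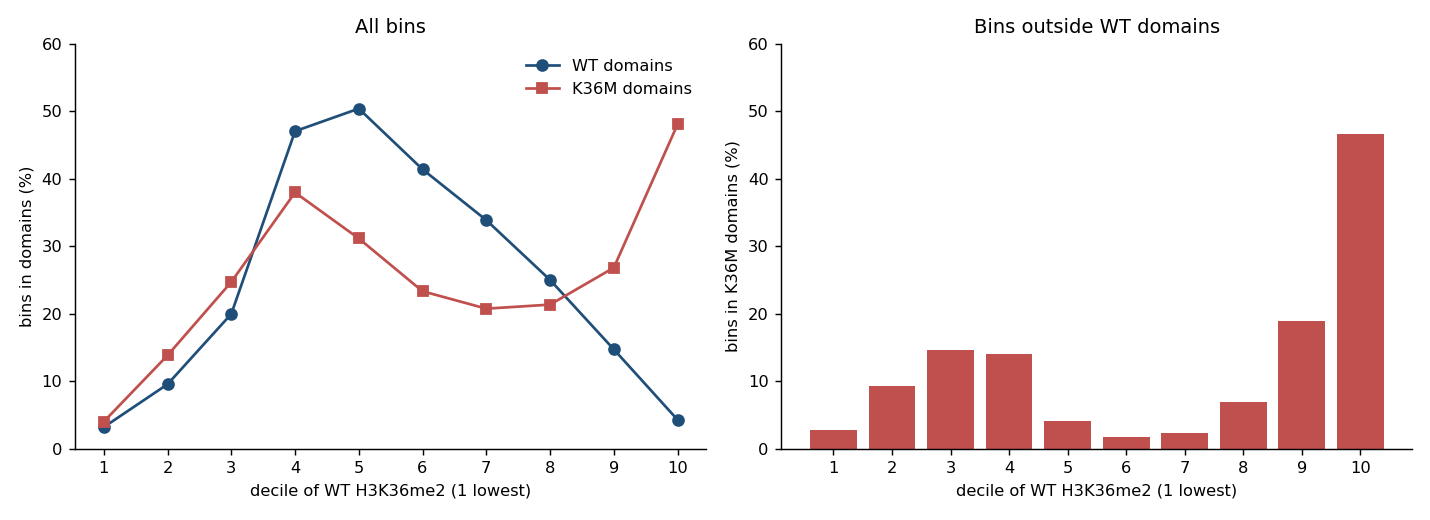
Left: share of bins (%) in WT and in K36M H3K27me3 domains by decile of WT H3K36me2, lowest first. Right: share of the bins outside WT domains (%) that lay in K36M domains, by the same deciles; it is 46.7% in the highest decile and 1.75% in the sixth.

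The named regions, given in mm9 positions and without gene names since no mouse annotation was used here, show these forms. The 4 longest WT domains were all on the X chromosome. The first, at 53670001 to 54820000, averaged 45.6 scaled reads per bin in WT and 84.6 in K36M, 1.86-fold higher (95% counting interval 1.83 to 1.88). Of its bins 98.3% lay in 3 K36M domains, the longest of them 680 kb. With library totals the ratio was 0.737. The other three, at 6410001 to 7240000, 47980001 to 48790000 and 44800001 to 45610000, lay for 92.6% to 97.6% in K36M domains.

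The longest K36M domain was on chromosome 1 at 152350001 to 153150000, where 4 WT domains covered 60% of it. H3K27me3 there averaged 23.8 scaled reads in WT and 76.1 in K36M, 3.19-fold higher (3.13 to 3.26), and still 1.27-fold with library totals. The other named long K36M domains, on X at 6410001 to 7160000, 54140001 to 54820000 and 68740001 to 69320000, were wholly in WT domains.

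The most WT domains, 7, were joined on chromosome 1 at 163190001 to 163540000, with means of 23.9 in WT and 71.8 in K36M. WT dipped to 7.08 between these domains, while no K36M bin over the same span held under 51.9. Next came 6 WT domains each at 14900001 to 15060000 of chromosome 5, 104120001 to 104620000 of chromosome 12 and 11010001 to 11190000 of chromosome 8. Their ratios were 7.81, 2.17 and 3.63, or 3.11, 0.864 and 1.45 with library totals.

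The longest new domain, on chromosome 9 at 47200001 to 47680000, averaged 5.15 scaled reads per bin in WT and 86.5 in K36M, 16.8-fold higher (16.1 to 17.6). No WT bin there exceeded 9.37 and no K36M bin was under 48.97. Both of its ends are intervals of another width, so its length is set by the table. Its WT H3K36me2 was low, at 26.7. A second on the same chromosome, at 15910001 to 16210000, which starts at such an interval, also had little, 31.1. By contrast, WT H3K36me2 was high in those on chromosome 16 at 14880001 to 15230000 and on chromosome 15 at 62170001 to 62450000. They held 522 and 538 scaled reads of H3K36me2 in WT and, with deposited factors, 13.7 and 12.2 in K36M. H3K27me3 was 15.2-fold and 13.9-fold higher in that pair, and 6.04-fold and 5.54-fold with library totals. Low WT and high K36M values are what the choice of new domains selects.

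The longest lost WT domain was on chromosome 6 at 97370001 to 97730000, with 40.7 scaled reads per bin in WT and 32.7 in K36M, a ratio of 0.804 (0.775 to 0.833). The others, at 52740001 to 53050000 of chromosome 11, 56200001 to 56510000 of chromosome 1 and 135040001 to 135350000 of chromosome 4, had ratios of 0.942, 0.892 and 0.973. These levels were near those of WT with the deposited factors, while with library totals the 4 ratios were 0.320 to 0.387. With deposited factors, K36M averaged below WT in 117 of the 218 lost WT domains of 100 kb or more and in 160 of the 1268 kept. Lost domains were chosen by low K36M values, so this difference is partly set by the choice. The median WT mean was 31.3 in the lost and 44.2 in the kept. Chromosome X held 2.75% of the lost and 15.3% of the kept. WT H3K36me2 was alike in both sets, with medians of 93.1 and 85.1.

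**Figure D5:**
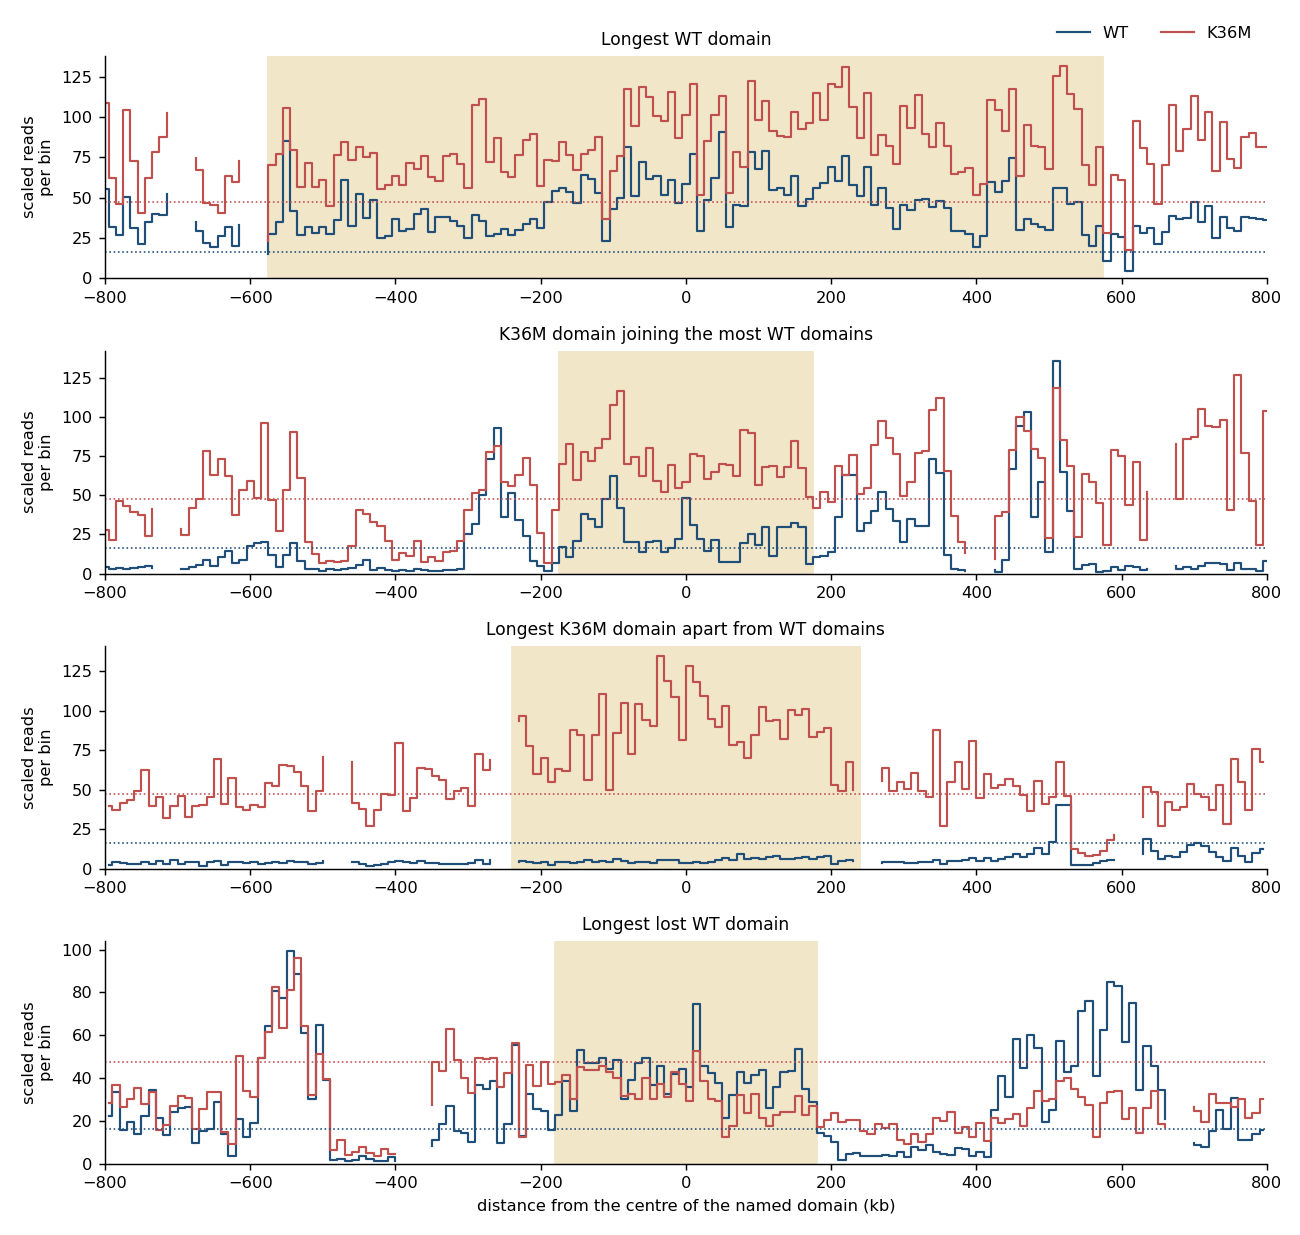
H3K27me3 in scaled reads per 10 kb bin in WT and K36M against distance from the centre (kb) of the longest WT domain, the K36M domain joining the most WT domains, the longest K36M domain apart from WT domains and the longest lost WT domain. The named domain is shaded, dotted lines are each library's 75th percentile (16.2 and 47.5), and breaks in the lines are intervals of another width; in the third panel WT stays at or under 9.37 over the domain while K36M stays at or above 48.97.

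The larger number of domains in K36M was seen on each of the 19 autosomes and on X, from 1.19 times WT on chromosome 5 to 1.98 times on chromosome 16. The mean domain was shorter in K36M on all 20. The share of bins in domains changed unevenly: it was larger in K36M on 11 autosomes, most on chromosome 16, by 10.2 percentage points, and smaller by 7.02 points on chromosome 7. Chromosome X went from 51.6% of its bins in WT to 41.2% in K36M, a change of -10.4 points, and its N50 from 220 to 90 kb. Of its K36M domain bins 93.6% lay in WT domains, where 51.6% of all X bins lay. On the autosomes the overlap was 46.3% to 69.1%, where 18.3% to 30.3% of all bins lay in WT domains. The overlap is thus not compared at an equal base share.

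Inside domains, the size of change per bin followed the scaling as well. By a 2-fold rule on log2(value + 1.64), leaving out the 25% of bins with the lowest mean level, 70.1% of all tested bins were higher in K36M and 0.161% lower with the deposited factors. In bins of both lines' domains 35.8% were higher (13490 of 37709) and in bins of WT domains alone 11.4%. With library totals the background was 30.9% higher and 11% lower, and in bins of both lines' domains 0.385% were higher and 25.9% lower. These classes were chosen with the same values, so the shares are descriptions.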

How the data were processed

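The authors deposited 1 table of signal per genomic interval for the 4 immunoprecipitated libraries. The submitters' processing notes name Bowtie 1.0.0 with mm9 and dm6 as builds; how reads were filtered and counted was not given in the sources used. The labels' protocols give S2 chromatin as 5% of the mouse chromatin, while another label states an equal mix of cells. In each H3K27me3 column every signal value (100%) was a multiple of 1 step to within 0.01 of a read, 0.109 in WT and 0.295 in K36M, so reads were recovered by division. With 1 library per line no count test was possible. Whether the step holds the spike-in scaling was taken as given, and the inputs were not analysed here.

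All 4659 intervals of other widths and 558 of 10 kb without H3K27me3 in either line were left out. Runs end at such intervals, at gaps and at chromosome ends. Library totals means K36M H3K27me3 multiplied by 0.398, so that both means were equal. H3K36me2 was brought to equal totals in the same way. Distances to WT domains were taken along the chromosome. Counting intervals are 95% (exact Poisson per bin, exact binomial split for ratios) and cover counting error only, as the reads carried no molecular identifiers. Named regions are the 4 longest, or those joining most WT domains, of each kind, ties going to the larger mean. Gene lists set for naming were not used, for want of a mouse annotation. The domain functions were tested on simulated data. The comparison and its rules were chosen with earlier results of these data known. The tools were Python 3.11.15 with scipy 1.17.1, numpy 2.4.6, matplotlib 3.10.9 and pandas 2.3.3.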

Additional observations from a re-analysis of the deposited data

How the results depend on the processing

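Of 117 alternative values for 13 counts, 71 stayed within 1.5 times and 46 moved further; a mean of 5 bins and a counting interval above the threshold were chosen after seeing the data. K36M had more domains than WT under all 10 domain settings, 1.32 to 1.498 times as many. It had fewer of 100 kb or more under 9, the exception being bridged gaps, with equal numbers. The ratio to WT ran from 0.393 to 1. The numbers were close under smoothing, 2048 in WT and 1926 in K36M with the mean of 3 bins and 2121 and 2086 with the mean of 5. No paired analysis was possible because each line has 1 library, and for the same reason no leave-one-out was run.

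At the 90th percentile there were 8399 WT and 12221 K36M domains, 423 and 175 of 100 kb or more, 12195 bins in both, 3943 kept, 242 joining and 351 gaps filled. At the 80th, 744 K36M domains reached 100 kb. With domains of 2 bins or more the counts were 8328 WT and 10991 K36M, 4329 kept, 319 joining, 4548 apart and 428 gaps filled. Bridging gave 12764 K36M domains, 2062 of 100 kb or more, 3123 lost and 5170 apart. The mean of 3 bins gave 6837 WT and 9496 K36M domains, 1926 K36M domains of 100 kb or more, 3679 kept, 2538 lost, 305 joining, 3890 apart and 407 gaps filled. The mean of 5 bins gave 5131, 6783, 2086, 2737, 1914, 211, 2740 and 278 for the same. With counting intervals above the threshold, 565 K36M domains reached 100 kb, 340 joined and 543 gaps were filled. With gaps filled from 50%, 1819 were.

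K36M bins at the WT threshold numbered 82094 with library totals and 97953 at the 90th percentile. Bins higher by 2-fold fell to 57717 with library totals. Bins lower, 300 with the deposited factors, were 20574 with library totals, 1689 at 1.5-fold, 173 with the median as pseudocount and 159 with the mean of 3 bins. Apart from smoothing and bridging, which merge runs by construction, and stricter thresholds, which leave fewer bins, the cause was not tested.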

Other observations

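The strongest H3K27me3 bins were shared between the lines well above the share of all bins. At the 95th percentile of each library, 42.1% of the WT bins were also in the K36M set, where 5.06% of all bins are, and at the 99th percentile 35.3%, where 1.00% are. Chromosome X holds 6.24% of all bins. It held 3.08% of the WT bins at the 99th percentile and 13.9% of the K36M bins, whereas at the 75th percentile it held 12.9% and 10.2%. X therefore lost share among the upper 25% of bins in K36M and gained share among the highest 1%. The library factors do not enter these shares, and with 1 library per line they were not tested.

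Around WT H3K27me3 domains, the gaps themselves differed with width. In WT the median H3K27me3 of bins in gaps of 10 kb was 12.8 scaled reads, and 4.14 in gaps of 110 to 500 kb; in K36M these were 31.6 and 23.3. WT H3K36me2 in the same gaps was 122 and 189. The widest gaps, of 510 kb or more, did not continue these trends. Their H3K27me3 was 4.58 in WT and 27.4 in K36M, and their WT H3K36me2 was 143. Gaps were chosen by WT H3K27me3, so its level in them is partly set by that choice.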
